A study of Homo sapiens with 8 samples.

Results

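Cells take up and exchange amino acids through carriers of the solute carrier (SLC) superfamily, and the genes described here are 39 members of 6 of its families, chosen by symbol from the 18902 gene symbols analysed. SLC1 holds 7 of them, SLC3 holds 2, SLC7 holds 12, SLC36 holds 4, SLC38 holds 11 and SLC43 holds 3. The rule picks genes by name and holds no threshold on a measured value. The RNA came from the human hepatocellular carcinoma cell lines MHCC-97H and MHCC-97L, as controls and after stable introduction of Flag-OGT. OGT is O-GlcNAc transferase, which attaches single N-acetylglucosamine sugars to proteins, and the tagged full-length wild-type sequence was delivered by a lentiviral vector that also carries luciferase and geneticin resistance. The 4 groups hold 2 libraries each and are called control MHCC-97H, Flag-OGT MHCC-97H, control MHCC-97L and Flag-OGT MHCC-97L cells. All cells grew in DMEM with fetal calf serum. The control libraries have no genotype label. The sources used here do not say whether they carried an empty vector, or whether the Flag-OGT cells were 1 clone or a pool. The study asks how OGT on chromatin acts in these cells.

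As background, the SLC1 family holds sodium-driven carriers of glutamate and aspartate and a pair of exchangers of small neutral amino acids. SLC7 proteins are either cationic amino acid transporters, which work alone, or light chains, which need a heavy chain of the SLC3 family to reach the membrane. The SLC38 family is known for coupling neutral amino acids such as glutamine and alanine to sodium, and the SLC36 family for coupling them to protons. SLC43 proteins let large neutral amino acids move down their gradient. In liver, such carriers feed urea and glutathione synthesis, and several of them are known targets of ATF4, the transcription factor of the amino acid response.

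Levels are the authors' deposited FPKM, fragments per kilobase of transcript per unit of library size, so they are scaled by gene length. The libraries' FPKM sums lay between 510449 and 613101, and the number of reads behind the values is unknown. Differences are log2 changes of FPKM + 1 with their standard error (SE) from limma, with Benjamini-Hochberg adjustment over all 13553 tested genes, and are called at an adjusted p under 0.05. A gene was tested when its mean over the 8 libraries reached 0.5 FPKM. OGT itself was at 32.5 and 34.2 FPKM in control MHCC-97H cells and 59.0 and 58.4 with Flag-OGT, and at 45.7 and 43.9 against 51.0 and 54.5 FPKM in MHCC-97L cells. The libraries split by Flag-OGT more than by line: across tested genes, r was 0.725 to 0.753 between the states of 1 line and 0.957 to 0.963 between the lines in 1 state. The 14 hepatocyte markers summed to 80.7 to 83.3 FPKM in control MHCC-97H and 222 to 228 FPKM in control MHCC-97L cells, against 11.9 to 12.3 and 7.64 to 8.94 FPKM in the Flag-OGT cells of these lines. HNF4A, a transcription factor of hepatocytes, had a mean of 14.6 FPKM over 2 libraries in control MHCC-97H cells and 0.035 FPKM in Flag-OGT cells. Of the 12 tested hepatocyte markers, 9 fell and 2 rose in MHCC-97H cells, and 11 fell and 1 rose in MHCC-97L cells. CPS1, of the urea cycle, rose in both, from a mean of 0.005 to 8.54 FPKM and from 0.02 to 3.01 FPKM, and ASGR1 rose in MHCC-97H cells. Over 7 fibroblast markers the sums were 4.54 to 12.2 FPKM in controls, against 14.6 to 20.9 FPKM in Flag-OGT cells, where COL1A2 was at 0. Within that sum LUM fell, from means of 10.0 and 4.48 to 0.035 and 0.04 FPKM in MHCC-97H and MHCC-97L cells, while ACTA2 (to 15.6 and 8.81 FPKM) and COL1A1 (to 3.95 and 6.05 FPKM) rose. Sums over 7 leukocyte markers were 69.3 to 82.5 and 3.48 to 9.64 FPKM, and CD68 alone averaged 78.6 FPKM in control MHCC-97H and 63.6 FPKM in control MHCC-97L cells, and CD3E was at 0 in both Flag-OGT groups. Only 3 of these markers were tested: 2 fell and 1 was not called in MHCC-97H cells, and 2 fell and 1 rose in MHCC-97L cells. Over 6 endothelial markers the sums were 33.5 to 46.4 and 0.66 to 1.57 FPKM, with CDH5 and TEK at 0 in the Flag-OGT libraries. The part of these shifts in the transporter differences was not tested. Since the Flag-OGT libraries of both lines are closer to each other than to the controls of their own line, Flag-OGT and any other difference between these libraries and the controls, their cell identity included, cannot be told apart. Rises and falls below are differences between the libraries so labelled. In bulk RNA, fewer cells of a type and less RNA per cell cannot be told apart.

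Of the 39 transporter genes, 30 were tested. The other 9 were SLC1A2, SLC1A6, SLC7A4, SLC7A10, SLC7A14, SLC36A3, SLC38A4, SLC38A8 and SLC38A11. SLC38A11 lay just under the filter, with a mean of 0.489 FPKM: the 4 controls had 0.97, 1.10, 1.00 and 0.71 FPKM, against 0 to 0.07 FPKM in Flag-OGT cells. SLC38A4, a carrier known from liver, did not exceed 0.08 FPKM in any library, and the highest value among the remaining 7 was 0.57 FPKM for SLC7A14. SLC3A1, SLC1A1 and SLC36A2, with means of 0.906, 1.005 and 0.899 FPKM, lay closest above the filter. Each library had 20 to 25 of the 39 genes at 1 FPKM or more. A gene that passed the filter only through the group where it is high had to differ between groups. The counts below thus describe the tested members, and neither they nor the p-values of such a gene support anything by themselves.

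Transcripts of these families were concentrated in 3 genes. SLC1A5, SLC3A2 and SLC7A5 together held 69.0% to 71.7% of the summed FPKM of the 39 genes in control MHCC-97H cells and 76.1% to 76.4% in the Flag-OGT MHCC-97L libraries, the other groups lying at 68.4% to 70.0%. Summed over all 39 genes the level was 966 and 998 FPKM in control MHCC-97H cells and 623 and 636 FPKM in Flag-OGT cells. In MHCC-97L it was 844 and 867 FPKM against 658 and 668 FPKM. The sums of both lines were thus lower in the Flag-OGT libraries, with no overlap between groups.

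**Figure D1:**
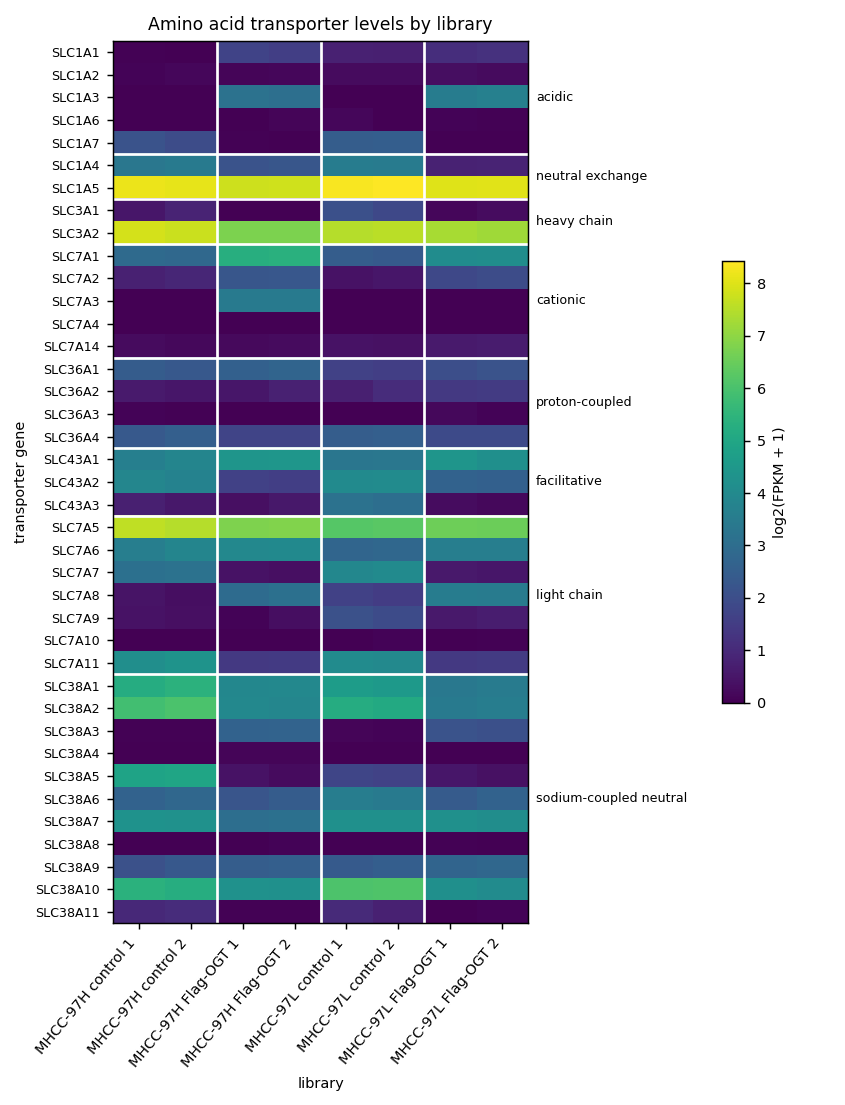
Heat map of log2(FPKM + 1) for the 39 amino acid transporter genes (rows, grouped by role) in the 8 libraries (columns, 2 per group). SLC1A5, SLC3A2 and SLC7A5 are bright in every library, the cells of SLC7A3 are dark outside Flag-OGT MHCC-97H cells, and SLC7A7, SLC7A11 and SLC1A7 are brighter in the controls.

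With Flag-OGT, 11 of the 30 tested transporter genes rose and 16 fell in MHCC-97H cells, against 48.2% of all tested genes called higher and 36.3% called lower. In MHCC-97L, 12 rose and 16 fell, against 50.1% and 34.7% of all tested genes. Of the 30, 10 rose in both lines (33.3%, against 5417 of the 13553 tested genes) and 14 fell in both (46.7%, against 27.4% of all tested genes). Only SLC7A5 was called in opposite directions (3.33%, against 6.6% of all tested genes). The median change of the 30 was -0.37 in MHCC-97H cells and -0.30 in MHCC-97L cells, beside medians over all tested genes of 0.15 and 0.19. With median-of-ratios scaling, which moves the median of all genes to -0.01 and 0.02, 8 rose and 19 fell in MHCC-97H cells and 10 rose and 18 fell in MHCC-97L cells. Over all 13517 genes tested at that scaling, 5667 rose and 5773 fell in MHCC-97H cells, and 5754 rose and 5636 fell in MHCC-97L cells. The genes that rose in both lines were SLC1A1, SLC1A3, SLC7A1, SLC7A2, SLC7A6, SLC7A8, SLC36A1, SLC38A3, SLC38A9 and SLC43A1.

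**Figure D2:**
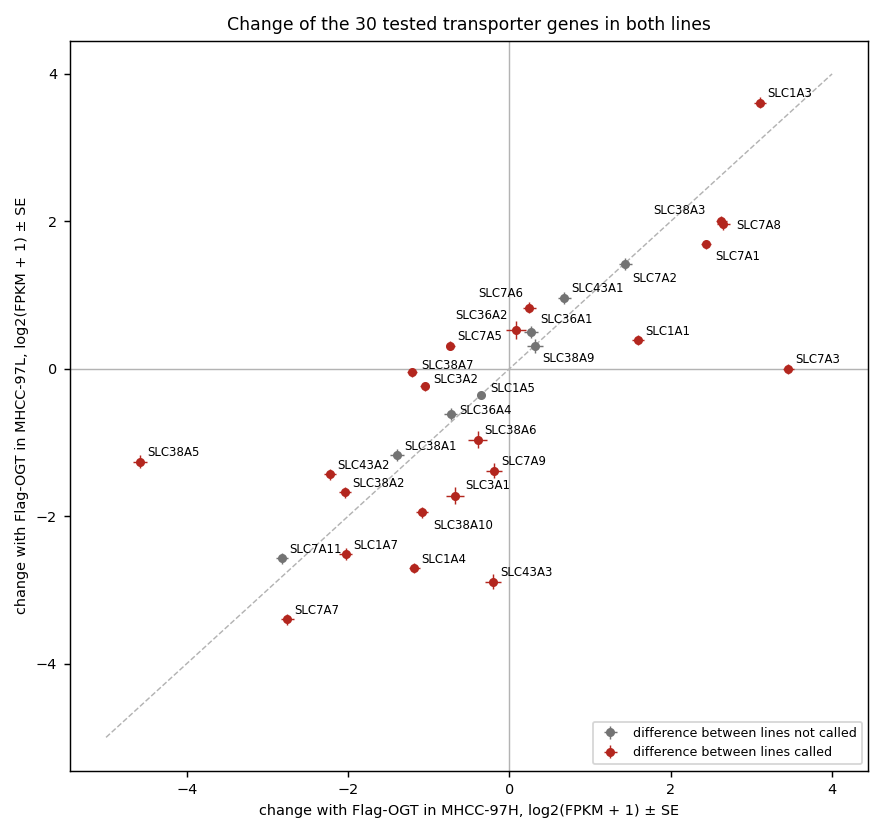
Log2(FPKM + 1) change with Flag-OGT in MHCC-97H cells (horizontal axis) and MHCC-97L (vertical axis) for the 30 tested transporter genes, with bars of 1 SE and a dashed line of equal change. Red points mark the 22 genes whose change differed between the lines; SLC38A5 lies far to the left of the line, SLC7A3 far to the right and SLC43A3 far below it.

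The sequences before the start sites are shown for the members with the largest mean change in both lines, to let their control regions be compared. Of the 4 highest and 2 lowest, SLC38A3 has no window in the table used. Each run is the 250 bases before a RefSeq start site on GRCh38.p14, given 5′ to 3′ on the gene's strand. Where RefSeq lists several starts, the one with the most motif matches before the start, counted on both strands, is shown, and the first listed at a tie. CACGTG reads the same on both strands, so each E-box counted as 2 matches, which favours windows with an E-box. Capitals mark matches to 3 motifs searched on both strands in the window of 250 bases before to 50 after the start: TGATGNAA, the composite element bound by ATF4 with C/EBP proteins, TGACNNNGC, the core of the antioxidant response element, and CACGTG, the E-box of MYC and TFEB. SLC1A3 is read from chr5:36596338-36596587 on the plus strand. SLC7A8 (chr14:23154394-23154643), SLC7A1 (chr13:29595689-29595938), SLC7A7 (chr14:22815872-22816121) and SLC38A5 (chrX:48470261-48470510) are read on the minus strand.
SLC1A3: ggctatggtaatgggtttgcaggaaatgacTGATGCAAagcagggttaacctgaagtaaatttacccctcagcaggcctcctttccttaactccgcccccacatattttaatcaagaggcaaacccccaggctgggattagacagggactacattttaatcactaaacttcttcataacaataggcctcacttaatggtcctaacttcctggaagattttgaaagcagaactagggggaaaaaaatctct
SLC7A8: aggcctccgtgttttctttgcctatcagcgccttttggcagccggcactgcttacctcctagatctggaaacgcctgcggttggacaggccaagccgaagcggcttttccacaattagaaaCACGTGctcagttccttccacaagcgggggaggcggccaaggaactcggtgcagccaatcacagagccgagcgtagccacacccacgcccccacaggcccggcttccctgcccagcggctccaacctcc
SLC7A1: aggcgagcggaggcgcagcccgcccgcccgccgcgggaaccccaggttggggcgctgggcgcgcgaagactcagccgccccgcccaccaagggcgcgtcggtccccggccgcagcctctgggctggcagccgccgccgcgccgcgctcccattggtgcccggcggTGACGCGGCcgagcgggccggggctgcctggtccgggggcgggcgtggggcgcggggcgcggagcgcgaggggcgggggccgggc
SLC7A7: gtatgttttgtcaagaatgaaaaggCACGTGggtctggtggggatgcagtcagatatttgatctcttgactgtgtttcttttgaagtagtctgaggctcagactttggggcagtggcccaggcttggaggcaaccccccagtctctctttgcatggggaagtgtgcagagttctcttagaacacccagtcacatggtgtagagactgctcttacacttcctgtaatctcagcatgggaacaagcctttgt
SLC38A5: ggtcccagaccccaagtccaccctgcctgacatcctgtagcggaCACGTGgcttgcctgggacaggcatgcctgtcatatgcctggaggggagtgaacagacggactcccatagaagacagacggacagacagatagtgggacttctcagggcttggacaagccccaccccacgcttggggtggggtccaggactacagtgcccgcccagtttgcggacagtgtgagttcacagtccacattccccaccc
SLC1A3 carries TGATGCAA from 220 bases before the start, and SLC7A1 carries TGACGCGGC from 85 bases before it and a TGATGNAA match from base 8 after it, which is not printed. SLC7A8, SLC7A7 and SLC38A5 each carry an E-box. Windows were found for 31 of the 39 genes, 53 in all. TGATGNAA occurred in 6 of these windows and in 3.62% of 34943 windows of all genes, TGACNNNGC in 7 and in 13.3%, and CACGTG in 9 and in 7.23%. Windows of 1 gene can overlap, so these are not independent, and a match describes letters, not binding. The 6 genes with a TGATGNAA match were SLC1A3 and SLC7A1, which rose in both lines, and SLC1A4, SLC1A5, SLC3A2 and SLC38A1, which fell in both.

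Among the carriers of glutamate and aspartate, SLC1A3 and SLC1A1 rose and SLC1A7 fell. SLC1A3, the glial glutamate transporter EAAT1, was at 0.02 FPKM in each control MHCC-97H library and at 8.12 and 7.47 FPKM in Flag-OGT cells (log2 change 3.11 ± 0.08, SE; adjusted p = 9.0e-11). In MHCC-97L it was listed at 0 in both controls and at 10.6 and 11.8 FPKM in Flag-OGT cells (adjusted p = 3.7e-11). No control library came near any Flag-OGT library. SLC1A1, the epithelial and neuronal carrier EAAT3, was at 0.03 and 0.01 against 2.20 and 1.97 FPKM in MHCC-97H cells, and at 0.72 and 0.67 against 1.15 and 1.29 FPKM in MHCC-97L cells. Its change was larger in MHCC-97H cells, by 1.21 ± 0.10 on the log2 scale (adjusted p = 7.2e-06). SLC1A7, the retinal carrier EAAT5, was at 3.46 and 2.89 FPKM in control MHCC-97H cells and 4.63 and 4.78 in control MHCC-97L cells, while 3 of the 4 Flag-OGT libraries listed it at 0 and the other at 0.04 FPKM (adjusted p = 3.0e-09 and 7.2e-10). Summed over the 5 carriers of this kind, the level went from 3.04 and 3.58 to 10.4 and 9.63 FPKM in MHCC-97H cells and from 5.66 and 5.63 to 12.04 and 13.3 FPKM in MHCC-97L cells.

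The neutral exchangers SLC1A5 and SLC1A4 fell in both lines. SLC1A5 (ASCT2), which exchanges glutamine, had the highest level of the 39 genes in each group. It was at 287 and 276 FPKM in control MHCC-97H cells and 220 and 223 FPKM in Flag-OGT cells (-0.35 ± 0.05, adjusted p = 5.9e-05), and at 325 and 342 against 257 and 261 FPKM in MHCC-97L cells (-0.36 ± 0.05, adjusted p = 4.5e-05). Groups did not overlap, and the difference between both falls was 0.01 ± 0.07 (adjusted p = 0.87). SLC1A4 (ASCT1), which carries alanine, serine and cysteine, was at 9.20 and 9.80 FPKM in control MHCC-97H cells and 3.5 and 3.79 FPKM in Flag-OGT cells. In MHCC-97L it went from 10.6 and 10.5 to 0.75 and 0.78 FPKM, a 13.8-fold lower mean. The fall was deeper in MHCC-97L cells, by 1.53 ± 0.10 on the log2 scale (adjusted p = 1.2e-06).

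The heavy chains fell as well. SLC3A2 (4F2hc, CD98), the partner of most light chains, was at 234 and 214 FPKM in control MHCC-97H cells and 107 and 108 FPKM in Flag-OGT cells (-1.05 ± 0.06, adjusted p = 4.3e-08). MHCC-97L cells had 180 and 185 against 160 and 149 FPKM (-0.24 ± 0.06, adjusted p = 3.2e-03). Its mean fell 2.09-fold in MHCC-97H cells and 1.182-fold in MHCC-97L cells, and the difference was called (-0.81 ± 0.08, adjusted p = 2.4e-05). SLC3A1 (rBAT), the heavy chain of the renal and intestinal cystine carrier, was at 0.43 and 0.79 FPKM in control MHCC-97H cells and listed at 0 in both Flag-OGT libraries. The MHCC-97L values were 3.12 and 2.58 against 0.11 and 0.22 FPKM (-1.72 ± 0.11, adjusted p = 1.8e-07). SLC7A9 (b0,+AT), its light chain, was at 0.32 and 0.28 against 0.05 and 0.24 FPKM in MHCC-97H cells (adjusted p = 0.10) and at 3.29 and 2.78 against 0.48 and 0.61 FPKM in MHCC-97L cells (-1.38 ± 0.10, adjusted p = 3.5e-07). The value in MHCC-97H cells became a called fall with a pseudocount of 0.1 (-0.82, adjusted p = 0.0434), median-of-ratios scaling (-0.23, adjusted p = 0.0435), quantile normalization (-0.47, adjusted p = 9.6e-04) and without replicate 2 of Flag-OGT MHCC-97H cells (-0.31, adjusted p = 0.0234). Both subunits of this carrier were thus highest in control MHCC-97L cells. SLC3A1 and SLC7A9 passed the filter only through that group, so p-values of comparisons with it are no support for a difference. Exons of SLC3A1 overlap those of PREPL on the other strand in GENCODE 29, and the sources used here do not say whether counting used strand, so reads of both genes cannot be told apart.

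The light chains that pair with SLC3A2 went in both directions. SLC7A5 (LAT1), the carrier of leucine and other large neutral amino acids, was at 195 and 176 FPKM in control MHCC-97H cells and 109 and 113 FPKM in Flag-OGT cells (-0.73 ± 0.06, adjusted p = 8.4e-07). Its levels in MHCC-97L cells were 72.6 and 75.6 FPKM for controls, then 93.6 and 91.0 FPKM in Flag-OGT cells (0.31 ± 0.06, adjusted p = 5.7e-04), a rise no longer called with median-of-ratios scaling (0.11, adjusted p = 0.159). Its change differed between the lines by -1.04 ± 0.08 (adjusted p = 4.7e-06), and control MHCC-97H cells stood above the other 6 libraries. Pseudogenes of SLC7A5 are annotated, and reads they share with it may be split between them.

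SLC7A11 (xCT), which imports cystine in exchange for glutamate, was at 16.9 and 18.9 FPKM in control MHCC-97H cells and at 1.66 and 1.67 FPKM in Flag-OGT cells, a 10.7-fold lower mean (-2.82 ± 0.07, adjusted p = 1.5e-10). MHCC-97L cells had 15.6 and 14.6 against 1.66 and 1.76 FPKM, an 8.83-fold lower mean (-2.57 ± 0.07, adjusted p = 3.5e-10). The Flag-OGT libraries of both lines were nearly level, and the falls did not pass the test of a difference (-0.25 ± 0.11, adjusted p = 0.058), but did with median-of-ratios scaling (-0.30, adjusted p = 0.0211), with quantile normalization (adjusted p = 0.0242), without the variance trend (adjusted p = 0.0492) and without replicate 1 of control MHCC-97H cells (-0.33, adjusted p = 0.0227). SLC7A7 (y+LAT1), which exports cationic for neutral amino acids, fell from 7.59 and 8.05 to 0.34 and 0.28 FPKM in MHCC-97H cells and from 13.8 and 15.2 to 0.50 and 0.44 FPKM in MHCC-97L cells (-2.75 ± 0.08 and -3.40 ± 0.08, adjusted p = 2.0e-10 and 5.2e-11). The means were 25.2-fold and 30.9-fold lower with Flag-OGT.

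SLC7A8 (LAT2) moved the other way. It rose from 0.35 and 0.25 to 6.74 and 7.58 FPKM in MHCC-97H cells (2.65 ± 0.08, adjusted p = 4.9e-10) and from 2.06 and 1.81 to 10.6 and 10.3 FPKM in MHCC-97L cells (1.97 ± 0.08, adjusted p = 5.6e-09). SLC7A6 (y+LAT2), a relative of SLC7A7, was at 11.2 and 13.2 FPKM in control MHCC-97H cells and 14.2 and 15.0 FPKM in Flag-OGT cells (0.25 ± 0.08, adjusted p = 0.014), which no longer passed with median-of-ratios scaling (0.06, adjusted p = 0.506), without replicate 1 of control MHCC-97H cells (0.14, adjusted p = 0.106) and without replicate 2 of Flag-OGT MHCC-97H cells (0.21, adjusted p = 0.0972). In MHCC-97L it rose from 5.73 and 5.99 to 11.2 in each library (0.83 ± 0.08, adjusted p = 3.4e-06). Exons of SLC7A6 overlap SLC7A6OS on the other strand, so its level carries the same limit as that of SLC3A1, as does that of SLC38A6 with TRMT5. Antisense models without a row of their own overlap exons of SLC1A5, SLC1A7, SLC7A5, SLC7A11 and SLC38A10. On the same strand, models without a row overlap exons of SLC3A1 (AC013717.1), SLC43A3 (AP000781.2) and SLC38A6 (AL160236.2). Strand could not separate reads shared there.

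Set against the heavy chain, the summed light chains SLC7A5, SLC7A6, SLC7A7, SLC7A8, SLC7A10 and SLC7A11 amounted to 0.984 and 1.015 times the SLC3A2 level in control MHCC-97H cells and to 1.23 and 1.28 times with Flag-OGT. In MHCC-97L the ratio was 0.610 and 0.613 in the controls and 0.737 and 0.769 with Flag-OGT. SLC7A5 made up 66.1% and 66.7% of the light chain sum in control MHCC-97L cells and 79.3% to 84.4% in the other 6 libraries. The remainder changed its make-up: in the controls it was mostly SLC7A11, SLC7A7 and SLC7A6, and with Flag-OGT mostly SLC7A6 and SLC7A8. These ratios are of RNA levels and were not tested.

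**Figure D3:**
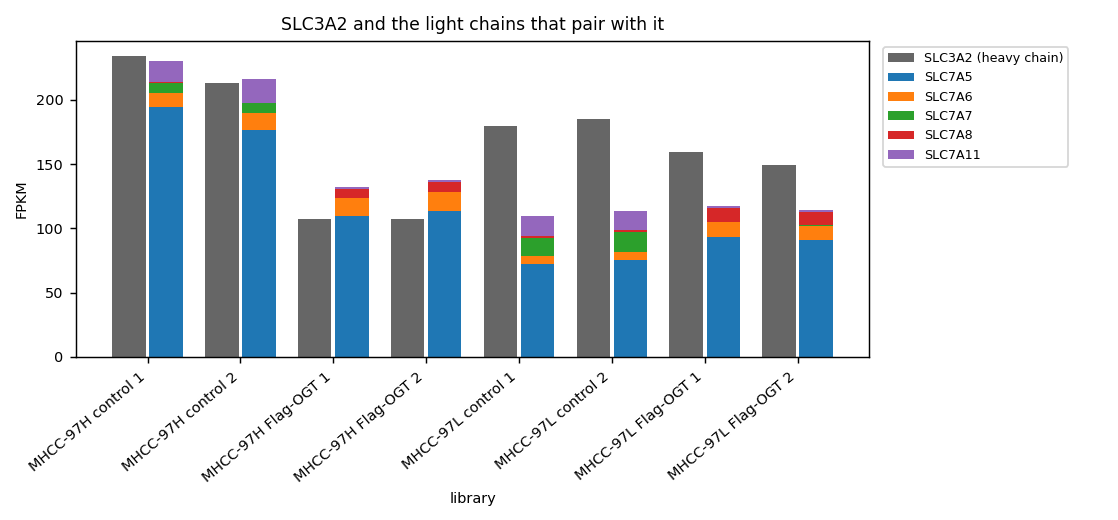
FPKM of SLC3A2 (grey bars) beside the stacked FPKM of its tested light chains (coloured bars) in each of the 8 libraries. SLC7A5 is the largest block throughout, the SLC7A11 and SLC7A7 blocks of the controls are nearly gone with Flag-OGT, and SLC3A2 is at 107 and 108 FPKM in Flag-OGT MHCC-97H cells against 149 to 234 FPKM elsewhere.

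Of the cationic amino acid transporters, SLC7A1 and SLC7A2 rose in both lines. SLC7A1 (CAT1), the widely expressed carrier of arginine and lysine, rose from 6.52 and 6.25 to 38.3 and 39.7 FPKM in MHCC-97H cells, 6.10-fold in the mean (2.44 ± 0.06, adjusted p = 1.4e-10). In MHCC-97L it rose from 4.58 and 4.19 to 16.3 and 16.5 FPKM, 3.73-fold (1.69 ± 0.06, adjusted p = 2.5e-09), and the rise was larger in MHCC-97H cells by 0.75 ± 0.09 (adjusted p = 6.9e-05). SLC7A2 (CAT2), the form known from hepatocytes and macrophages, rose from 0.69 and 0.88 to 3.80 and 3.85 FPKM in MHCC-97H cells and from 0.34 and 0.41 to 2.52 and 2.84 FPKM in MHCC-97L cells (1.44 ± 0.08 and 1.42 ± 0.08). Its changes in both lines were 0.02 ± 0.11 apart (adjusted p = 0.90), but the difference was called at -0.27 with quantile normalization (adjusted p = 0.0464). With a pseudocount of 0.1 the difference was -0.39 (adjusted p = 0.14). In the means SLC7A2 rose 4.87-fold in MHCC-97H cells and 7.15-fold in MHCC-97L cells. SLC7A3 (CAT3), a brain-type carrier, was at 9.77 and 10.2 FPKM in Flag-OGT MHCC-97H cells and listed at 0 in the other 6 libraries (adjusted p = 1.4e-11 against control MHCC-97H cells and 9.7e-10 against Flag-OGT MHCC-97L cells). It passed the filter only through that group, so a difference was fixed in advance and these p-values are no support for it. Together the 5 genes of this role went from 7.40 and 7.26 to 52.0 and 54.0 FPKM in MHCC-97H cells and from 5.26 and 4.91 to 19.3 and 19.9 FPKM in MHCC-97L cells. The level of SLC7A1 was 0.034 and 0.035 times that of SLC7A5 in control MHCC-97H cells and 0.350 times in both Flag-OGT libraries.

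**Figure D4:**
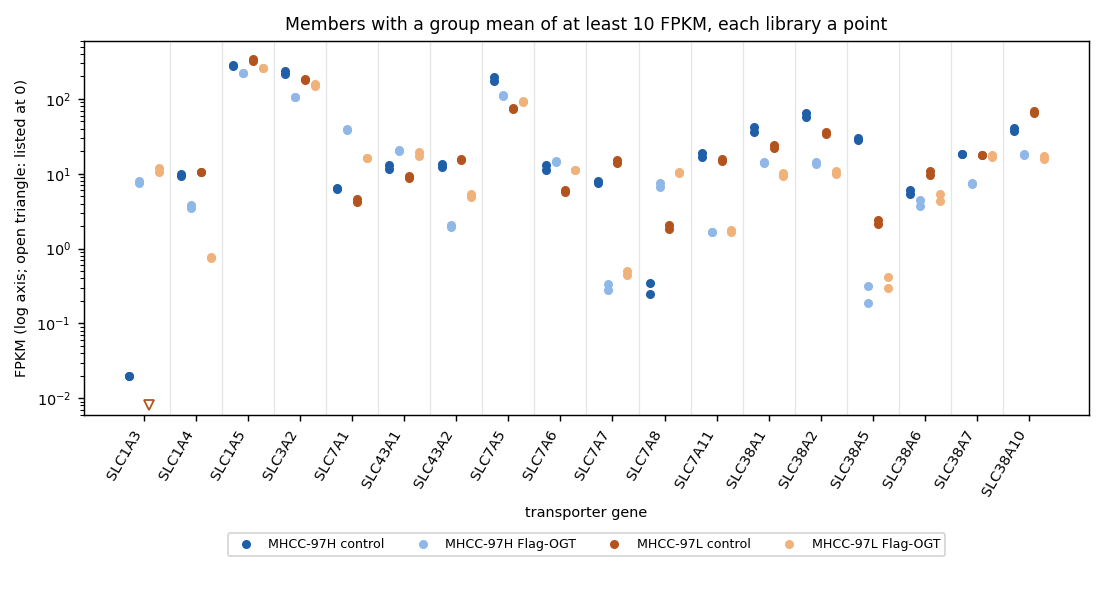
FPKM on a log axis of the 18 transporter genes with a group mean of at least 10 FPKM, each library a point coloured by group, with an open triangle for SLC1A3 listed at 0 in control MHCC-97L cells. SLC7A7, SLC7A11 and SLC38A5 lie lower and SLC1A3, SLC7A1 and SLC7A8 higher in the Flag-OGT libraries of both lines, while the points of SLC7A5 are ordered oppositely in the 2 lines.

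Of the 8 tested members of the SLC38 family, 6 fell and 2 rose in MHCC-97H cells, and 5 fell and 2 rose in MHCC-97L cells. Of all tested genes, 36.3% and 34.7% fell and 48.2% and 50.1% rose in these lines. The median change of the 8 members was -1.14 and -1.07, beside 0.15 and 0.19 over all tested genes. SLC38A2 (SNAT2), known for its induction by amino acid starvation, was at 57.1 and 64.5 FPKM in control MHCC-97H cells and 14.4 and 13.7 FPKM in Flag-OGT cells, a 4.33-fold lower mean (-2.04 ± 0.07, adjusted p = 1.8e-09). In MHCC-97L it went from 36.3 and 33.8 to 9.86 and 10.8 FPKM, 3.40-fold lower (-1.67 ± 0.07, adjusted p = 9.7e-09). SLC38A1 (SNAT1), a glutamine importer, fell from 35.9 and 41.9 to 13.9 and 14.3 FPKM in MHCC-97H cells and from 24.1 and 22.4 to 9.25 and 10.3 FPKM in MHCC-97L cells (-1.39 ± 0.08 and -1.17 ± 0.08). In both genes all controls lay above all Flag-OGT libraries.

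SLC38A5 (SNAT5), which carries glutamine, histidine and serine, fell much further in MHCC-97H cells. It was at 28.4 and 29.7 FPKM in control MHCC-97H cells and at 2.38 and 2.13 FPKM in control MHCC-97L cells, a 12.9-fold difference in the means. With Flag-OGT it was at 0.32 and 0.19 FPKM in MHCC-97H cells and 0.42 and 0.30 FPKM in MHCC-97L cells, where the lines overlap. The fall was larger in MHCC-97H cells (-4.58 ± 0.08 against -1.26 ± 0.08, difference -3.32 ± 0.12, adjusted p = 3.7e-08).

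SLC38A3 (SNAT3), a glutamine carrier of liver, kidney and brain, was at 0.03 FPKM in each control MHCC-97H library and at 5.26 and 5.48 FPKM in Flag-OGT cells. In MHCC-97L it rose from 0.09 and 0.05 to 3.44 and 3.17 FPKM (2.63 ± 0.07 and 2.01 ± 0.07, adjusted p = 1.5e-10 and 1.4e-09). It rose while the summed level of the 11 SLC38 genes went from 190 and 203 to 68.5 and 67.7 FPKM in MHCC-97H cells, and from 160 and 162 to 68.1 FPKM in each library of MHCC-97L.

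Of the remaining tested SLC38 members, SLC38A10 fell from 41.0 and 37.3 to 18.2 and 17.6 FPKM in MHCC-97H cells (-1.08 ± 0.07). In MHCC-97L it fell from 65.4 and 68.3 to 17.5 and 15.7 FPKM (-1.95 ± 0.07). SLC38A7 (SNAT7), which exports glutamine from lysosomes, fell in MHCC-97H cells from 18.5 and 18.3 to 7.21 and 7.63 FPKM (-1.2 ± 0.06, adjusted p = 2.2e-08). The MHCC-97L values were 17.7 and 17.8 against 17.7 and 16.5 FPKM (-0.05 ± 0.06, adjusted p = 0.46). This became a called fall with median-of-ratios scaling (-0.25, adjusted p = 5.1e-03) and with a common sum (-0.16, adjusted p = 0.0301). SLC38A9, the lysosomal arginine sensor upstream of mTORC1, was at 3.23 and 4.03 against 4.58 and 4.92 FPKM in MHCC-97H cells and at 4.24 and 4.74 against 5.58 and 6.0 FPKM in MHCC-97L cells. Both rises (0.32 ± 0.09 and 0.31 ± 0.09, adjusted p = 9.8e-03 and 0.011) were lost with median-of-ratios scaling (0.15 and 0.13), without replicate 1 of either control group, and without replicate 2 of either Flag-OGT group (adjusted p between 0.0679 and 0.0844 in these 4 cases). With quantile normalization the rise in MHCC-97H cells was lost too (adjusted p = 0.0969). With a common sum that in MHCC-97L cells was lost (adjusted p = 0.0704). SLC38A6 went from 5.30 and 6.05 to 3.66 and 4.51 FPKM in MHCC-97H cells (-0.40 ± 0.11, adjusted p = 7.8e-03) and from 10.8 and 9.74 to 4.29 and 5.33 FPKM in MHCC-97L cells (-0.96 ± 0.11). The call in MHCC-97H cells was lost without replicate 2 of the controls (-0.31, adjusted p = 0.0574) or replicate 1 of Flag-OGT (-0.27, adjusted p = 0.0821).

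The SLC36 members stayed under 6 FPKM in all libraries. SLC36A1 (PAT1), which releases small neutral amino acids from lysosomes, was at 4.42 and 4.0 against 4.97 and 5.57 FPKM in MHCC-97H cells (0.27 ± 0.08, adjusted p = 0.012) and at 2.07 and 1.96 against 3.08 and 3.46 FPKM in MHCC-97L cells (0.50 ± 0.08, adjusted p = 2.3e-04). The rise in MHCC-97H cells was lost with median-of-ratios scaling (0.10, adjusted p = 0.257) and quantile normalization (0.14, adjusted p = 0.118). It was also lost without replicate 2 of the controls (adjusted p = 0.0758) or of Flag-OGT (adjusted p = 0.107). SLC36A4 fell from 4.12 and 4.84 to 2.32 and 2.28 FPKM in MHCC-97H cells and from 4.55 and 4.88 to 2.74 and 2.75 FPKM in MHCC-97L cells (-0.73 ± 0.08 and -0.61 ± 0.08). SLC36A2 did not exceed 1.73 FPKM; it rose in MHCC-97L cells, from 0.66 and 1.10 to 1.65 and 1.73 FPKM (0.53 ± 0.12, adjusted p = 2.3e-03), and was at 0.51 and 0.42 against 0.41 and 0.71 FPKM in MHCC-97H cells (adjusted p = 0.53).

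The SLC43 members went separate ways. SLC43A1 (LAT3), a carrier of branched-chain amino acids, rose from 11.5 and 13.2 to 19.98 and 20.7 FPKM in MHCC-97H cells and from 8.87 and 9.21 to 19.8 and 17.5 FPKM in MHCC-97L cells (0.68 ± 0.08 and 0.96 ± 0.08, adjusted p = 1.9e-05 and 1.3e-06). SLC43A2 (LAT4), with similar substrates, fell from 13.7 and 12.4 to 2.06 and 1.94 FPKM in MHCC-97H cells, 6.52-fold, and from 15.2 and 15.9 to 5.32 and 4.95 FPKM in MHCC-97L cells, 3.03-fold (-2.22 ± 0.07 and -1.43 ± 0.07, adjusted p = 7.4e-10 and 2.5e-08). In the controls SLC43A2 was at or above the level of SLC43A1 in every library but replicate 2 of MHCC-97H, and in the 4 Flag-OGT libraries it was below. SLC43A3, known as a purine base transporter and a member by family only, was at 8.02 and 7.30 FPKM in control MHCC-97L cells and between 0.13 and 0.68 FPKM in the other 6 libraries. Its value in MHCC-97H cells (-0.20 ± 0.10, adjusted p = 0.079) became a called fall with median-of-ratios scaling (-0.28, adjusted p = 0.0253), quantile normalization (-0.51, adjusted p = 6.7e-04) and without replicate 2 of either group (adjusted p = 0.0356 and 0.0303).

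The difference between the changes of both lines was called for 22 of the 30 genes, 13 with the larger value in MHCC-97H cells and 9 in MHCC-97L cells, beside 63.3% of all tested genes (33.9% and 29.4% by direction). A positive difference also arises where a fall was deeper in MHCC-97L cells, as in SLC43A3 (2.69 ± 0.14, adjusted p = 3.3e-07) and SLC1A4. SLC43A3 passed the filter only through control MHCC-97L cells, so its p-value is no support for a difference. With quantile normalization 13 and 15 were called. The 8 genes with no called difference were SLC1A5, SLC7A2, SLC7A11, SLC36A1, SLC36A4, SLC38A1, SLC38A9 and SLC43A1. With quantile normalization SLC36A1, SLC36A4, SLC38A1 and SLC43A1 were called too (adjusted p = 0.0138, 0.048, 0.0413 and 0.0283). At that setting SLC7A11 (-0.29, adjusted p = 0.0242) and SLC7A2 (adjusted p = 0.0464) were also called, SLC7A2 with its sign turned to -0.27. Without replicate 1 of control MHCC-97H cells SLC38A1 (adjusted p = 0.0215) and SLC43A1 (adjusted p = 0.0144) were called, and SLC43A1 also without replicate 2 of Flag-OGT MHCC-97L cells (adjusted p = 0.0255).

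Between the controls, 11 of the 30 genes were higher in MHCC-97H cells and 13 in MHCC-97L cells, beside 26.5% and 38.9% of all tested genes. These comparisons share their libraries with those of Flag-OGT. The split over all genes turned with scaling, from 3589 higher and 5270 lower in MHCC-97H cells to 4948 and 4090 with median-of-ratios and 4676 and 4220 with a common sum. For the transporters these scalings gave 13 higher and 9 lower, and 12 and 10. SLC7A5 was 2.50-fold higher in control MHCC-97H cells (1.31 ± 0.06, adjusted p = 8.5e-08), and SLC38A5 (3.21 ± 0.08) had the largest gap of the 30 genes in that direction. SLC43A3 was 13.3-fold higher in MHCC-97L cells (-2.46 ± 0.10, adjusted p = 4.2e-08), and SLC7A9 (-1.63 ± 0.10), SLC3A1 (-1.26 ± 0.11) and SLC7A8 (-1.17 ± 0.08) were also higher there. SLC43A3, SLC7A9 and SLC3A1 passed the filter only through control MHCC-97L cells, so their tests here are no support for a difference.

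Between the Flag-OGT libraries, 11 were higher in MHCC-97H cells and 9 in MHCC-97L cells, beside 69.7% of all tested genes (33.6% and 36.1% by direction). Over all genes the split of 4551 and 4894 became 5934 and 3526 with a common sum and 5668 and 3733 with median-of-ratios, where the transporters split into 14 and 7, and 13 and 7. SLC7A3 stood out in MHCC-97H cells, followed by SLC1A4, 4.76-fold higher (1.40 ± 0.07, adjusted p = 2.1e-07), and SLC7A1, 2.38-fold higher (1.2 ± 0.06, adjusted p = 3.0e-07). SLC38A7 was 2.31-fold higher in MHCC-97L cells (-1.11 ± 0.06, adjusted p = 3.8e-07), as was SLC43A2 (-1.03 ± 0.07). SLC1A5 was called lower in MHCC-97H cells (-0.23 ± 0.05, adjusted p = 1.7e-03), but the value turned to 0.02 with quantile normalization. The call was also lost with a common sum (-0.03, adjusted p = 0.569) and with median-of-ratios scaling (-0.07, adjusted p = 0.278). SLC7A5, 2.50-fold apart between the controls, was 1.21-fold apart here (0.27 ± 0.06, adjusted p = 2.4e-03).

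Other genes of amino acid handling were taken from lists chosen with earlier results of these data known. The counts of each list stand beside 48.2% of all tested genes called higher and 36.3% lower in MHCC-97H cells, and 50.1% and 34.7% in MHCC-97L cells. Of 18 tested carriers of other SLC families and lysosomal or mitochondrial amino acid carriers, 7 rose and 10 fell in MHCC-97H cells and 8 rose and 7 fell in MHCC-97L cells. SLC6A15, a carrier of branched-chain amino acids and proline, had a mean of 12.2 FPKM in Flag-OGT MHCC-97H cells and 8.88 FPKM in Flag-OGT MHCC-97L cells and was listed at 0 in all controls. SLC16A10, a carrier of aromatic amino acids, rose from 0.17 to 7.74 and from 0.31 to 7.84 FPKM. SLC6A6, the taurine transporter, fell from 32.6 to 8.46 and from 15.7 to 6.12 FPKM, and SLC25A44, the mitochondrial carrier of branched-chain amino acids, from 43.8 to 15.6 and from 31.1 to 11.4 FPKM.

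In the amino acid response list, 9 of 16 rose and 7 fell in MHCC-97H cells, and 6 rose and 8 fell in MHCC-97L cells (all tested genes: 48.2% and 36.3%, then 50.1% and 34.7%). DDIT4 had the largest log2 rise of the list in MHCC-97H cells, from 5.22 to 85.7 FPKM (3.80 ± 0.06). In MHCC-97L it went from 14.6 to 16.4 FPKM (0.16 ± 0.06). ASNS, asparagine synthetase, rose from 25.7 to 255 FPKM in MHCC-97H cells (3.26 ± 0.05) and from 43.5 to 213 FPKM in MHCC-97L cells. DDIT3, which encodes CHOP, fell from 50.5 to 5.91 and from 52.3 to 12.1 FPKM. TRIB3 fell from 59.0 to 14.9 and from 94.1 to 8.99 FPKM, ATF5 from 48.3 to 7.96 and from 64.1 to 5.96 FPKM, and NUPR1 from 49.3 to 11.5 and from 193 to 10.7 FPKM. ATF4 itself, named after its values were seen, rose from 184 to 833 FPKM in MHCC-97H cells and from 271 to 838 FPKM in MHCC-97L cells.

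Of 14 genes of cystine and glutathione metabolism, 6 rose and 8 fell in MHCC-97H cells, and 6 rose and 7 fell in MHCC-97L cells, beside the same shares of all tested genes (48.2% and 36.3%, then 50.1% and 34.7%). GCLM and GCLC, the subunits of glutamate-cysteine ligase, fell beside SLC7A11, GCLM from 76.3 to 5.38 FPKM in MHCC-97H cells and from 64.6 to 6.60 FPKM in MHCC-97L cells. CBS and CTH, the enzymes that make cysteine from homocysteine, rose: CBS from 4.78 to 120 and from 15.2 to 79.9 FPKM, and CTH from 1.54 to 14.7 and from 2.04 to 17.4 FPKM.

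Enzymes of glutamine, glutamate and branched-chain amino acids rose in 14 of 16 and fell in 2 in MHCC-97H cells, and rose in 10 and fell in 2 in MHCC-97L cells (all tested genes: 48.2% and 36.3%, then 50.1% and 34.7%), with median changes of 0.93 and 0.54 beside 0.15 and 0.19 over all tested genes. PYCR1, of proline synthesis, rose from 0.31 to 153 and from 0.32 to 105 FPKM. In the list of amino acid sensing and mTORC1, 16 of 34 rose and 14 fell in MHCC-97H cells, and 14 rose and 11 fell in MHCC-97L cells, against 48.2% and 36.3%, then 50.1% and 34.7%, of all tested genes. SESN2, the leucine sensor, rose from 7.16 to 35.1 and from 6.13 to 23.0 FPKM, and SESN1 from 0.88 to 9.87 and from 1.16 to 7.33 FPKM. RRAGB, a Rag GTPase, fell from 12.2 to 3.82 and from 7.20 to 3.58 FPKM. FPKM values of these lists are means of 2 libraries.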

How the data were processed

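RNA of 8 libraries in 4 groups of 2 was measured, and the authors deposited 1 FPKM column per library, rounded to 2 decimals. Per the submitters' processing notes, Bowtie2, HISAT2 2.1.0, RSEM 1.2.4, DESeq2 1.18.1 and hg19 were used, with no roles stated. Of 18928 features, 26 with date-like symbols were left out. Log2(FPKM + 1) values of the 13553 genes with a mean of at least 0.5 FPKM entered limma 3.58.1 under R 4.3.3 as 1 mean per group, leaving 4 residual degrees of freedom; variances were moderated along the mean, and tests were two-sided. The procedure was tested on simulated data. No label says that libraries of a group came from separate cultures, so the p-values speak of library spread, possibly technical. Depth is unknown.

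Members and lists were chosen with earlier results of these data known. Values in every library are given for the members with a group mean of at least 10 FPKM, and from other lists up to 2 called genes at either end in each line are named. GATSL2, GATSL3, SLC6A5 and SLC17A6 of those lists were not found by symbol. Promoter sequences are from RefSeq on GRCh38.p14, another build than the files', and no coordinates were matched between builds. Tables and figures used Python 3.11.15, pandas 2.3.3, numpy 2.4.6 and matplotlib 3.10.9.

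Also tried were scaling to a common sum or by median-of-ratios, quantile normalization, a pseudocount of 0.1, a mean filter of 2 or none, variances without the trend, a replicate block, and leaving out each library.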

Additional observations from a re-analysis of the deposited data

Results flagged for a closer look

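The change with Flag-OGT differed between the lines by limma's test of the difference for 22 transporter genes. Values are the change in MHCC-97H minus that in MHCC-97L on the log2(FPKM + 1) scale. Positive values were those of SLC7A3 (3.46, listed at 0 in both MHCC-97L groups and in the MHCC-97H controls), SLC43A3 (2.69), SLC1A4 (1.53), SLC1A1 (1.21), SLC7A9 (1.2), SLC3A1 (1.04), SLC38A10 (0.87), SLC7A1 (0.75), SLC7A8 (0.68), SLC7A7 (0.65), SLC38A3 (0.62), SLC38A6 (0.57) and SLC1A7 (0.48). Negative values were those of SLC38A5 (-3.32), SLC38A7 (-1.15), SLC7A5 (-1.04), SLC3A2 (-0.81), SLC43A2 (-0.79), SLC7A6 (-0.58), SLC1A3 (-0.50), SLC36A2 (-0.44) and SLC38A2 (-0.37). The call for SLC36A2 was lost in 10 of its alternatives, that for SLC38A2 in 3, that for SLC38A6 in 2, and those for SLC7A7 and SLC3A1 in 1 each. SLC7A3, SLC43A3, SLC7A9 and SLC3A1 passed the filter only through a single group, so their calls are no support for a difference.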

How the results depend on the processing

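Counts of called transporter genes stayed within 1.5 times under the alternatives, except that 15 genes in place of 9 had a negative difference between lines with quantile normalization, and 8 in place of 13 were higher in the MHCC-97L controls with a mean FPKM filter of 2, where fewer genes were tested. With the replicate block the counts were 11 and 16 in MHCC-97H and 12 and 16 in MHCC-97L; replicate numbers share no stated source, and their deviations correlated between groups with r of -0.206 to 0.309. Leaving out single libraries gave 8 to 11 higher and 16 to 19 lower in MHCC-97H, 11 to 12 and 16 to 17 in MHCC-97L, 12 to 13 and 8 to 11 for the difference, 10 to 11 and 10 to 13 between controls, and 11 to 12 and 8 to 10 between Flag-OGT groups. Of 2338 gene values under alternatives, 134 changed side or sign, 24 of them in sign. One of these was called in the main analysis, SLC1A5 between Flag-OGT groups (0.0203, quantile). The others were SLC36A2 in MHCC-97H (-0.219, quantile), for the difference SLC38A9 (-0.186, quantile) and SLC7A2 (-0.393 with a pseudocount of 0.1, -0.270 with quantile), between controls SLC1A4 (0.00603, median-of-ratios), SLC38A3 (0.0142, quantile) and SLC36A4 (0.0474 with a common sum, 0.0653 with median-of-ratios, 0.0274 with quantile), and between Flag-OGT groups SLC7A11 (0.0992 with a common sum, 0.0759 with median-of-ratios). Without single libraries, SLC1A5 (-0.0228 to 0.0503), SLC38A9 (-0.115 to 0.135) and SLC7A2 (-0.0596 to 0.0941) turned for the difference, SLC36A2 in MHCC-97H (-0.0545 to 0.224), SLC36A4 between controls (-0.158 to 0.0318) and SLC7A11 between Flag-OGT groups (-0.0505 to 0.00271). The cause was not tested. With 2 libraries a group and unknown depth, values under about 1 FPKM are the least certain.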
